A study of Rattus norvegicus with 6 samples.

Results

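T cells were read here through 10 genes, namely the coreceptor chains Cd8a, Cd8b and Cd4, the CD3 chains Cd3d, Cd3e and Cd3g, and the cytotoxic effectors Gzma, Gzmb, Prf1 and Ifng. They were taken by symbol from a table of 32623 genes of rat liver, where each of the 10 had 1 row, and all 10 passed the filter on low counts that left 14499 genes to be tested. The TAE group (3 libraries) was liver tissue of rats that underwent transarterial embolization, a procedure that cuts off a tumour's arterial blood supply. The HCC group (3 libraries) was liver tissue of rats of the same hepatocellular carcinoma study that received no treatment. The labels call the replicates biosamples and give no strain, sex, age, tumour content or time after embolization.

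A T cell reads a peptide through its antigen receptor, which signals through the CD3 chains that every conventional T cell carries. The coreceptors CD8, a pair of alpha and beta chains, and CD4 bind MHC class I and class II molecules and bring the kinase Lck to the receptor. Killer T cells and natural killer (NK) cells store perforin and granzymes in granules and secrete interferon gamma. The coreceptors are not private to T cells. In rats, CD4 is also carried by monocytes and macrophages, and the CD8 alpha chain without beta by NK cells and some myeloid cells, whereas the CD3 chains are largely restricted to T cells. In whole tissue, more cells of a type and more RNA per cell cannot be told apart.

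Library totals were 13448286 to 16604067 counts, and the TAE libraries differed among themselves more than the HCC libraries did. Levels are given in FPKM, the count scaled to exonic length and to the library total, which allows genes to be compared with each other. TAE replicate 3 held the highest FPKM of the 6 libraries for 9 of the 10 genes, against 16.0% of the 14499 genes tested. The exception was Ifng, for which it held the lowest. That library also held the highest summed FPKM of the T cell, NK cell, B and plasma cell, macrophage, dendritic cell and hepatocyte marker lists, so results are also given without it.

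Coreceptor chains stood above the HCC range in all 3 TAE libraries, while CD3 chains and effectors did not. Cd8a, the CD8 alpha chain, had 142, 138 and 202 FPKM in TAE replicates 1 to 3, against 52.0, 83.7 and 63.5 FPKM in HCC replicates 1 to 3. Cd4 had 70.5, 48.8 and 96.7 FPKM in the TAE libraries, against 29.5, 31.1 and 25.0 FPKM in the HCC libraries. The means of Cd8a and Cd4 were thus 2.42-fold and 2.52-fold those of HCC, with no overlap between groups for either gene. Cd8b, the CD8 beta chain, had 15.6, 17.8 and 33.2 FPKM in the TAE libraries, against 9.57, 13.4 and 11.1 FPKM in the HCC libraries. Its groups did not overlap either, but TAE replicates 1 and 2 lay only just above the highest HCC library. Of the 14499 genes tested, 21.9% had all TAE libraries above all HCC libraries, 5.54% had the reverse and 27.5% either, so 3 of 10 genes is near the background.

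**Figure D1:**
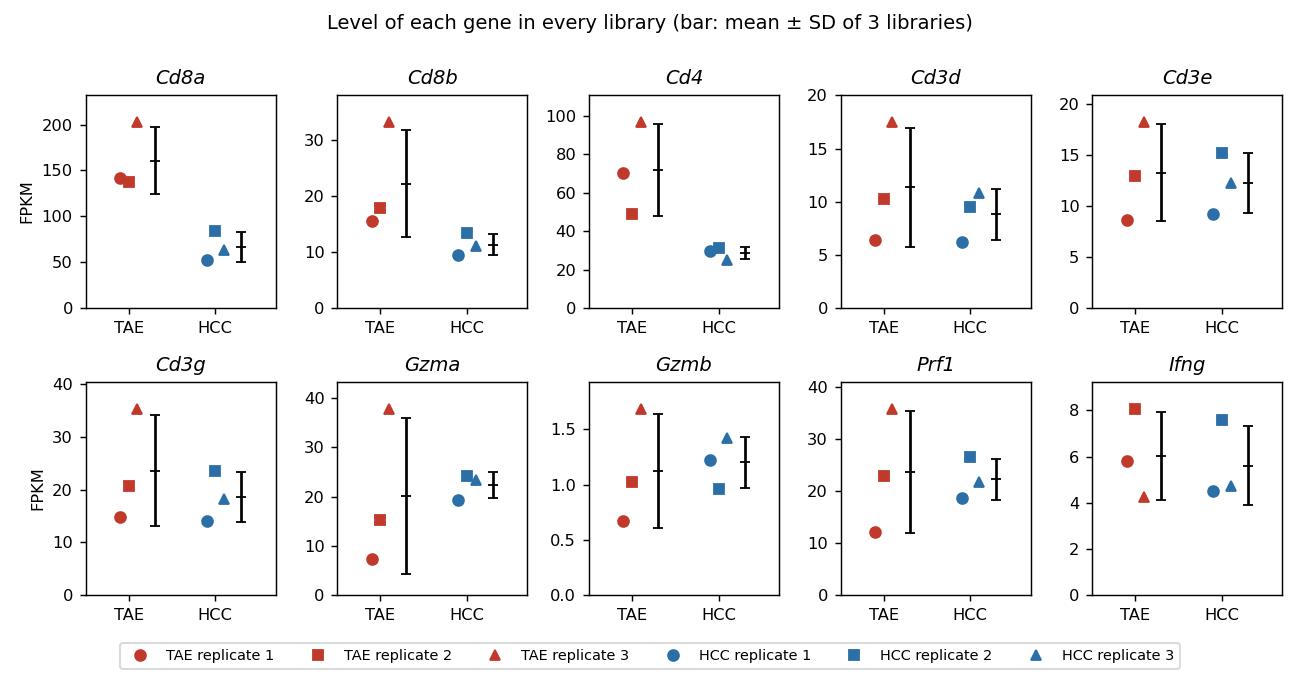
FPKM of each of the 10 genes (vertical axes, from 0) in the 3 TAE libraries (red) and the 3 HCC libraries (blue), with the mean ± SD of each group as a black bar. Cd8a, Cd8b and Cd4 have no overlap between groups, and TAE replicate 3 (red triangle) is the highest library in every panel except Ifng.

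None of the 10 genes passed an adjusted p of 0.05 in edgeR's quasi-likelihood test over all genes, where 3.01% of all genes did (2.70% higher in TAE, 0.310% lower). The log2 change of TAE against HCC was 1.25 ± 0.28 (SE) for Cd8a, with an edgeR adjusted p of 0.0606. It was 1.33 ± 0.31 for Cd4, with an edgeR adjusted p of 0.0664, and 0.97 ± 0.37 for Cd8b, with an edgeR adjusted p of 0.186. At an unadjusted p under 0.05 these 3 coreceptor chains passed, as did 22.7% of all genes. Cd8a and Cd4 lay close to the threshold and crossed it under 5 of 7 other settings. With DESeq2 their adjusted p was 0.00128 and 0.00181, where 10.6% of genes were called. They were also called in edgeR with total count scaling (7.15% of genes called) or no filter on low counts (3.83%), and with limma on log2(FPKM + 1) or log2(FPKM + 0.1) (4.74% and 4.79%). They were not called with median-of-ratios scaling (3.28%) or a replicate block (0.00%). They also crossed it without TAE replicate 3 (adjusted p = 0.0318 and 0.0320 in edgeR, with 8.33% of genes called) and without TAE replicate 2 (0.0163 and 0.00656, with 24.2% called), but not without TAE replicate 1 (0.00681% called) or HCC replicate 1, 2 or 3 (0.00%, 0.00675% and 0.00%). Without TAE replicate 3 the log2 change was 0.95 for Cd8a and for Cd4 and 0.43 for Cd8b, so that the Cd8b value rested on that library by more than 1.5 times.

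The 3 CD3 chains, which carry the signal of the receptor into the cell, varied around the HCC range. Cd3e had 8.66, 12.96 and 18.16 FPKM in the TAE libraries, against 9.24, 15.13 and 12.27 FPKM in the HCC libraries. Cd3d had 6.39, 10.2 and 17.5 FPKM in TAE, against 6.18, 9.49 and 10.8 FPKM in HCC. Cd3g had 14.9, 20.7 and 35.2 FPKM in TAE, against 14.1, 23.5 and 18.2 FPKM in HCC. For each chain TAE replicate 3 was above every HCC library and the other two TAE libraries were within or below the HCC range. The log2 changes were 0.10 ± 0.35 for Cd3e, 0.36 ± 0.45 for Cd3d and 0.34 ± 0.40 for Cd3g, with edgeR adjusted p of 0.616 to 0.872. The approximate 95% interval of the Cd3e change ran from -0.58 to 0.79, which leaves room for a modest change in either direction. Without TAE replicate 3 the changes of Cd3d, Cd3e and Cd3g were -0.22, -0.31 and -0.19.

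Gzma and Prf1 spread most widely of the 10 genes between the TAE libraries, with SDs of log2 FPKM of 1.19 and 0.78. Gzma, a trypsin-like granule protease, had 7.27, 15.3 and 37.7 FPKM in TAE replicates 1 to 3, against 19.3, 24.2 and 23.5 FPKM in the HCC libraries. The highest TAE library was thus 5.19-fold the lowest, while the HCC libraries differed by 1.25-fold, and TAE replicates 1 and 2 were below and TAE replicate 3 above every HCC library. Prf1, which encodes the pore-forming protein perforin, had 12.3, 23.0 and 35.8 FPKM in TAE, against 18.7, 26.6 and 21.7 FPKM in HCC. Its 3 TAE libraries lay below, within and above the HCC range. Gzmb, a protease that cleaves after aspartate and activates caspases, was the least abundant gene of the set, with 0.67, 1.02 and 1.68 FPKM in TAE against 1.22, 0.96 and 1.42 FPKM in HCC. These values rest on 15 to 43 counts per library, and the Gzmb row overlaps 3 other annotated genes in position. Whether reads were divided among these genes was not tested. Ifng, the interferon gamma gene, had 5.79, 8.04 and 4.25 FPKM in TAE and 4.50, 7.58 and 4.72 FPKM in HCC, and the groups had nearly the same range. It was thus the only gene of the 10 whose lowest value was in TAE replicate 3, on 36 counts there.

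The log2 changes of the effectors were -0.12 ± 0.58 for Gzma, -0.11 ± 0.45 for Gzmb, 0.08 ± 0.41 for Prf1 and 0.03 ± 0.32 for Ifng, with edgeR adjusted p of 0.895 to 0.958. The sign for Prf1 was negative with limma on FPKM (-0.028 at a pseudocount of 1). Without TAE replicate 3 the changes of Gzma, Gzmb and Prf1 were -1.12, -0.63 and -0.48 (edgeR adjusted p = 0.0619, 0.344 and 0.286). The approximate 95% interval for Gzma ran from -1.26 to 1.02, which leaves room for a decrease or an increase of up to about that size. The median log2 change was 1.25 over the 3 coreceptor chains, 0.34 over the 3 CD3 chains and -0.04 over the 4 effectors, against -0.03 over all genes tested.

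**Figure D2:**
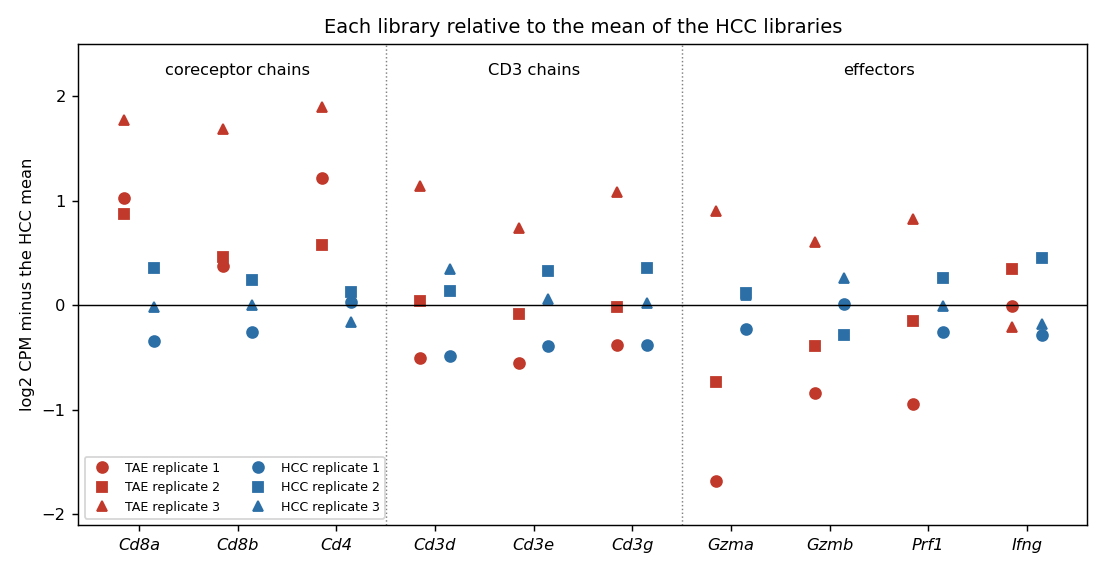
log2 CPM (counts scaled to TMM-adjusted library size) of each gene minus its mean over the HCC libraries, for the TAE libraries (red) and the HCC libraries (blue), with dotted lines between the coreceptor chains, the CD3 chains and the effectors. The coreceptors of all TAE libraries lie above 0, and Gzma runs from -1.68 in TAE replicate 1 to 0.90 in TAE replicate 3.

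In TAE the order of mean levels was Cd8a (161 FPKM), Cd4 (72.0), Prf1 (23.7), Cd3g (23.6), Cd8b (22.2), Gzma (20.1), Cd3e (13.3), Cd3d (11.4), Ifng (6.03) and Gzmb (1.12). In HCC it was Cd8a (66.4 FPKM), Cd4 (28.5), Prf1 (22.3), Gzma (22.3), Cd3g (18.6), Cd3e (12.2), Cd8b (11.4), Cd3d (8.82), Ifng (5.60) and Gzmb (1.20). From Prf1 down to Ifng the ranges of neighbours overlapped in both groups. Only in TAE was the range of Cd4 separate from that of Prf1, a difference between groups that was not tested.

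Ratios within a library do not depend on how the libraries are scaled to each other, so each gene was set against Cd3e. The Cd8a to Cd3e ratio of FPKM was 16.4, 10.6 and 11.1 in the TAE libraries, against 5.63, 5.53 and 5.18 in the HCC libraries. The HCC libraries thus held almost the same ratio although their Cd8a levels differed by 1.61-fold, and the lowest TAE ratio was well above them. The Cd4 to Cd3e ratio was 8.14, 3.76 and 5.32 in TAE, against 3.19, 2.06 and 2.04 in HCC. The Cd8b to Cd3e ratio was 1.80, 1.38 and 1.83 in TAE, against 1.04, 0.883 and 0.906 in HCC. For all 3 coreceptor chains the ratio was above every HCC library in all 3 TAE libraries, including TAE replicate 3. Of the 14498 genes tested other than Cd3e, 8.08% had such a ratio to Cd3e. The CD3 chain Cd3g was among them, with Cd3g to Cd3e at 1.72, 1.60 and 1.94 in TAE against 1.53, 1.55 and 1.49 in HCC.

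The mean log2 ratio differed by 1.20 between TAE and HCC for Cd8a, by 1.20 for Cd4 and by 0.82 for Cd8b. For each of these 3 ratios the two-sided exact permutation test gave p = 0.10, the smallest that 3 against 3 libraries allow, and 0.267 after Benjamini-Hochberg adjustment over 8 ratios. None of the ratios could therefore pass a threshold of 0.05. The differences stayed positive when each library was left out in turn, from 1.00 to 1.31 for Cd8a, from 0.91 to 1.47 for Cd4 and from 0.74 to 0.95 for Cd8b. Against the mean of the 3 CD3 chains in place of Cd3e they were smaller, at 1.06 for Cd8a, 1.07 for Cd4 and 0.68 for Cd8b. The ratio of the alpha to the beta chain of CD8 was 9.10, 7.74 and 6.10 in TAE, against 5.43, 6.26 and 5.71 in HCC. TAE replicates 1 and 2 were above the HCC range and TAE replicate 3 was within it (exact permutation p = 0.20, adjusted p = 0.40).

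For no effector were the ratios of the groups apart. The Prf1 to Cd3e ratio was 1.41, 1.77 and 1.97 in TAE and 2.03, 1.76 and 1.77 in HCC (mean log2 difference -0.12, exact permutation p = 0.60). The Gzma to Cd3e ratio was 0.839, 1.18 and 2.08 in TAE, against 2.08, 1.60 and 1.91 in HCC (-0.54, exact permutation p = 0.30). TAE replicates 1 and 2 thus held less Gzma per Cd3e than any HCC library. The Gzmb to Cd3e ratio was 0.0774, 0.0787 and 0.0925 in TAE and 0.132, 0.0635 and 0.116 in HCC (-0.26, exact permutation p = 0.40), within the HCC range. The Ifng to Cd3e ratio was 0.669, 0.620 and 0.234 in TAE and 0.487, 0.501 and 0.385 in HCC (0.02, exact permutation p = 1.00), and its TAE libraries lay on both sides of the HCC range.

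**Figure D3:**
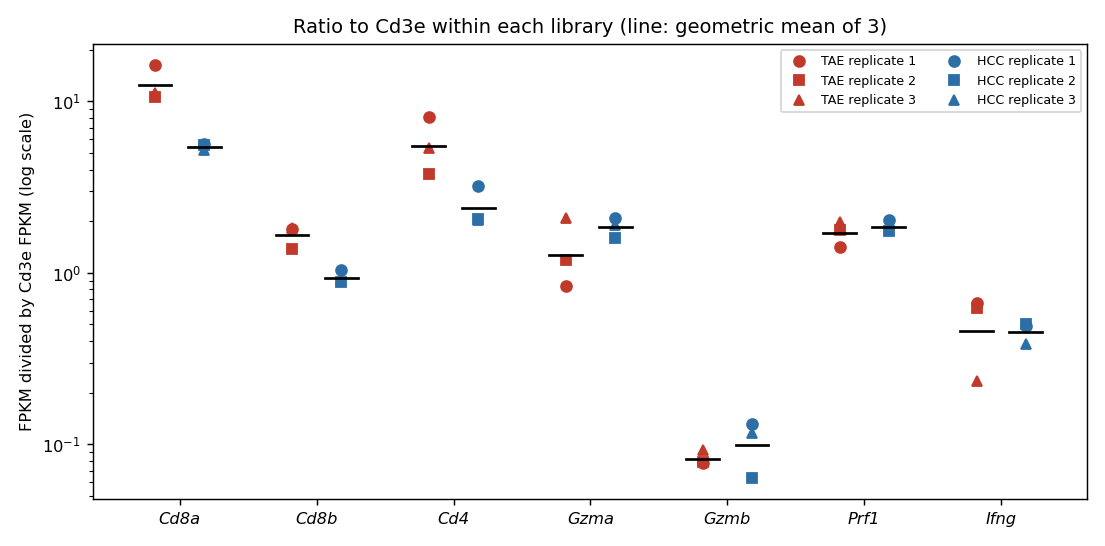
FPKM of 7 genes divided by the Cd3e FPKM of the same library (log scale), for the TAE libraries (red) and the HCC libraries (blue), with the geometric mean of each group as a line. The groups are apart for Cd8a, Cd8b and Cd4 and overlap for Gzma, Gzmb, Prf1 and Ifng.

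Promoters are shown for Cd8a, which stood apart from Cd3e, and for Cd3e and Prf1, whose profiles ran close together. The sequences are RefSeq's on GRCr8, 250 bases before to 50 after the start site on the gene's strand, and 8 of the 10 genes had one. The windows are chr4:104923866-104924165 (plus strand) for Cd8a, chr8:54211721-54212020 (minus strand) for Cd3e and chr20:29788790-29789089 (plus strand) for Prf1. Capitals mark matches, on either strand, to the letters TATAAA of the TATA box, to the letters TGTGGT of the core bound by RUNX factors, to the letters GGAAGT of an ETS-type core, and to the letters TGACGT found in cyclic AMP response elements.
Cd8a: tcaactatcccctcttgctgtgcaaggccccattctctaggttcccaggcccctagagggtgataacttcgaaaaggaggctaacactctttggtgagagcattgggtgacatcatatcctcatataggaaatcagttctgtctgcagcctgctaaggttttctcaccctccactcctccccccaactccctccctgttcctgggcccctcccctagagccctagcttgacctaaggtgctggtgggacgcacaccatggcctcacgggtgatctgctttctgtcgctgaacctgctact
Cd3e: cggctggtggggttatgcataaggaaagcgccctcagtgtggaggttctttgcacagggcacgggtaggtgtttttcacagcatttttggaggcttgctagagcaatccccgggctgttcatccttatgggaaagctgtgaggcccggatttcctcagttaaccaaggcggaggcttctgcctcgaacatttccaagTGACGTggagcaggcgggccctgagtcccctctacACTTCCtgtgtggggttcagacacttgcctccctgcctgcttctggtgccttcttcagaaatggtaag
Prf1: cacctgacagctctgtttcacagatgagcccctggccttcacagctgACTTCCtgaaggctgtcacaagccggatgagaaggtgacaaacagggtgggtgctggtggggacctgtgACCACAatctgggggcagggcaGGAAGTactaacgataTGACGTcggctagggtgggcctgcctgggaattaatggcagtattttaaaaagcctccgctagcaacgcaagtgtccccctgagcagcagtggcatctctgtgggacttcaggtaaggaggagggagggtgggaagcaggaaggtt
The Cd8a window held none of the 4 letter strings. The Cd3e window held 1 match to the cyclic AMP string and 1 to the ETS string, and the Prf1 window 1 to the cyclic AMP string, 2 to the ETS string and 1 to the RUNX string, with no overlaps between matches. Of the windows not shown, that of Cd3g also held none, that of Cd3d 1 ETS match and that of Ifng 1 TATA match. The Gzma window held 1 RUNX and 1 ETS match, and the Gzmb window 1 TATA, 3 RUNX and 1 cyclic AMP match. Over 27457 promoter windows of the same length, 14.3% held the TATA string, 16.9% the RUNX string, 22.8% the ETS string and 8.22% the cyclic AMP string. These matches describe letters in the windows and nothing about binding.

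Genes with the most similar profile were found by the root mean square distance of centred log2 CPM over the 6 libraries, among 11716 named genes with a mean of at least 1 FPKM. For Cd3e they were Cd5 (distance 0.09), Ms4a4c (0.11) and Cd6 (0.11), of which Cd5 and Cd6 encode surface receptors of T cells. For Prf1 they were Lag3 (0.08), an inhibitory receptor of activated T cells, Mt2A (0.12), a metal-binding metallothionein, and Tigit (0.13), an inhibitory receptor of T and NK cells. For Cd4 they were Adgre1 (0.07), the F4/80 antigen of macrophages, Txnip (0.07), a thioredoxin-binding protein, and Kcnk13 (0.08), a potassium channel. Adgre1 had 43.4, 33.1 and 64.5 FPKM in TAE, against 21.0, 20.3 and 17.4 FPKM in HCC, with the same order of TAE libraries as Cd4. For Cd8a they were Tlr7 (0.07), an endosomal receptor for RNA, Pstpip1 (0.09), a cytoskeletal adaptor of blood cells, and Slc31a2 (0.10), a copper transporter. Of these 12 genes Tlr7 alone passed over all genes, with an edgeR adjusted p of 0.0497. By the same distance Cd8a and Cd4 were 0.25 apart, Cd3e and Prf1 0.17, and Cd3e and Cd3g 0.13.

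Part of the macrophage and monocyte markers was higher in TAE, as the coreceptors were. Of 175 list genes tested over 12 lists, 24 were called in edgeR, against 3.01% of all genes (2.70% higher in TAE, 0.310% lower). All 24 lost their calls without TAE replicate 1 or without any one HCC library. Without TAE replicate 3, 41 list genes were called, against 8.33% of all genes (4.82% higher in TAE, 3.51% lower). Of 16 macrophage and monocyte markers tested, 8 (Aif1, Cd68, Csf1r, Fcgr1a, Gpnmb, Lyz2, Msr1 and Trem2) rose in TAE and none fell, with a median log2 change of 1.22, and their summed FPKM was 4221 to 5940.2 in TAE against 1452 to 1716 in HCC. Without TAE replicate 3, 9 were called higher and 2 lower (median 0.98), against 4.82% and 3.51% of all genes. The 2 lower were Marco, a scavenger receptor, with 13.7, 12.6 and 80.5 FPKM in TAE against 49.9, 31.9 and 34.5 FPKM in HCC, and Clec4f, a lectin of Kupffer cells, with 42.2, 35.9 and 89.8 FPKM in TAE against 88.0, 63.4 and 68.9 FPKM in HCC. TAE replicates 1 and 2 were below and TAE replicate 3 above every HCC library for both genes, which with Cd163 had negative changes over all libraries and did not pass. In TAE replicates 1, 2 and 3 the mean log2 level of the 16 markers relative to HCC was 1.01, 0.44 and 1.72, while Cd4 stood at 1.22, 0.58 and 1.90 and Cd8a at 1.03, 0.88 and 1.77. Set against Csf1r, the macrophage growth factor receptor, which was chosen after its values were seen, Cd4 gave ratios of 0.558, 0.569 and 0.788 in TAE and 0.538, 0.640 and 0.595 in HCC. These ranges overlap, as do those of Cd8a to Csf1r, at 1.12, 1.61 and 1.65 in TAE and 0.950, 1.72 and 1.51 in HCC. The Cd8b to Csf1r ranges overlap too, at 0.123, 0.208 and 0.270 in TAE and 0.175, 0.275 and 0.265 in HCC. Cd3e to Csf1r was lower in every TAE library, at 0.0686, 0.151 and 0.148, than in any HCC library, at 0.169, 0.311 and 0.292. Csf1r was itself called higher in TAE and Cd3e changed little (log2 change 0.10), so a lower ratio was largely fixed by this choice. The share of all genes with such a ratio to Csf1r was not computed. Csf1r is 1 of the 16 markers, and ratios to the others were not taken. The log2 changes of the markers differed, at 1.18 for Csf1r, 1.97 for Lyz2 and -0.10 for Cd163. The overlap of the Cd4, Cd8a and Cd8b ratios and the lower Cd3e ratio are thus shown for Csf1r alone. Whether they hold for macrophage markers in general was not tested. Lyz2, the myeloid lysozyme, averaged 3226 ± 388 FPKM in TAE and 801 ± 124 FPKM in HCC (log2 change 1.97, edgeR adjusted p = 0.0388). The part of macrophages in the coreceptor values was not tested.

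NK cell and dendritic cell markers, both of which can include cells that carry the CD8 alpha chain in rats, were also higher in part. Of 15 NK cell markers tested, 3 rose (Klrk1, Fcgr3a and Tyrobp), none fell and the median log2 change was 0.81 (0.44 without TAE replicate 3, with 4 called higher, against 4.82% of all genes), with a summed FPKM of 482 to 679.8 in TAE against 219.7 to 255 in HCC. Klrk1, the activating receptor NKG2D, averaged 46.1 ± 4.94 FPKM in TAE and 28.9 ± 1.82 FPKM in HCC (SD, n = 3 each, log2 change 0.61), while Fcgr3a and Tyrobp, an IgG receptor and a signalling adaptor, are also used by macrophages. Ncr1, the NK receptor NKp46, had 1.92, 1.80 and 3.17 FPKM in TAE against 0.84, 0.82 and 0.90 FPKM in HCC and did not pass (edgeR adjusted p = 0.0760). Of 12 dendritic cell markers, Itgax, Cd80 and Cd83 rose and none fell (median 0.68, and 0.45 without TAE replicate 3), with a summed FPKM of 64.2 to 85.0 in TAE against 33.9 to 40.7 in HCC. The other 9 dendritic cell markers did not pass. Among them were Flt3, Clec9a and Zbtb46 (log2 change 0.42, 0.38 and 0.02), and Siglech, the only one with a negative change (-0.89). None of 9 B and plasma cell markers tested passed (3 at an unadjusted p under 0.05, against 22.7% of all genes, and 3 with DESeq2, against 10.6%). Those with the smallest p were Ms4a1, Jchain and Mzb1, and the list median of 0.85 was 0.18 without TAE replicate 3, where Jchain was called. The summed FPKM of this list was 276 in TAE replicate 3, against 126 and 168 in the other TAE libraries and 101 to 112 in HCC. No marker of these lists was at 0 in all libraries, and the part of these cells was not tested.

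**Figure D4:**
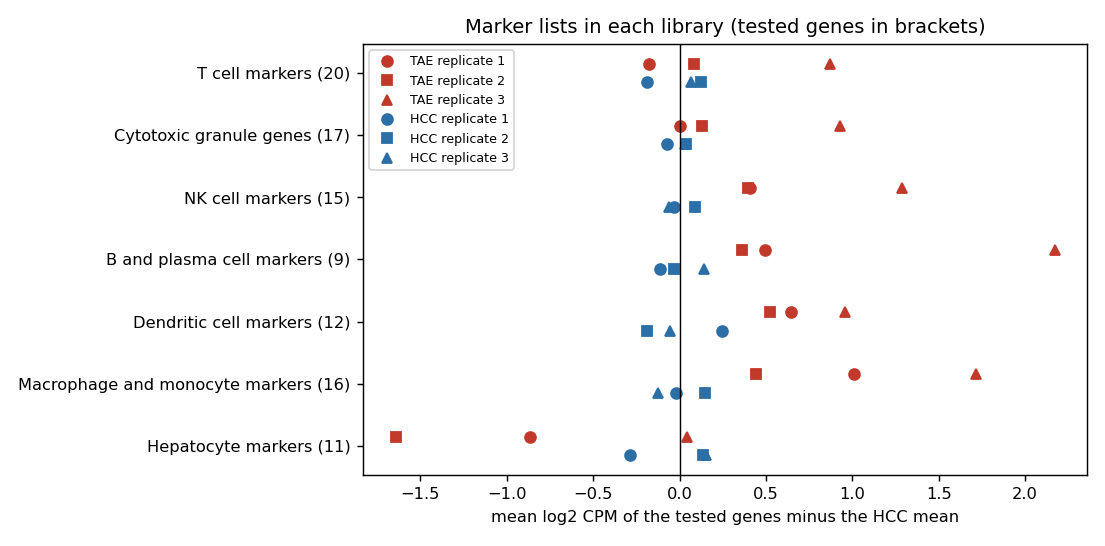
Mean log2 CPM of the tested genes of 7 marker lists minus the mean over the HCC libraries, for the TAE libraries (red) and the HCC libraries (blue). T cell markers lie at -0.18, 0.08 and 0.87 in TAE replicates 1, 2 and 3, whereas macrophage and monocyte markers lie at 1.01, 0.44 and 1.72.

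On the wider T cell list, none of 20 T cell markers tested passed in edgeR (1 at an unadjusted p under 0.05, against 22.7% of all genes, and 1 with DESeq2, against 10.6%), 18 had positive log2 changes and the median was 0.35, against -0.03 over all genes. Without TAE replicate 3 the median was -0.09, of the opposite sign, and again none passed (1 at an unadjusted p under 0.05). Their summed FPKM was 104 to 213 in TAE and 98.4 to 130.3 in HCC, with only TAE replicates 2 and 3 above the HCC range. Cd7, an immunoglobulin family receptor of T and NK cells, averaged 19.8 ± 10.1 FPKM in TAE and 7.64 ± 0.916 FPKM in HCC (edgeR adjusted p = 0.121). Cd96, a receptor of T and NK cells, averaged 3.41 ± 1.595 FPKM in TAE and 1.80 ± 0.146 FPKM in HCC (edgeR adjusted p = 0.232), and Icos, a costimulatory receptor, 10.8 ± 2.95 FPKM in TAE and 13.3 ± 0.217 FPKM in HCC (0.221). None of 14 T cell transcription factors passed (2 at an unadjusted p under 0.05, against 22.7% of all genes, 0 with DESeq2), and their median was 0.16 with and -0.02 without TAE replicate 3. The 3 with the smallest p were Prdm1, at 2.82 ± 0.274 FPKM in TAE and 1.86 ± 0.310 FPKM in HCC, Satb1, at 3.46 ± 1.02 FPKM in TAE and 4.57 ± 0.438 FPKM in HCC, and Runx3, at 3.69 ± 0.459 FPKM in TAE and 2.40 ± 0.515 FPKM in HCC.

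Of 17 genes of T cell receptor signalling tested, Lcp2, Fyn and Vav1 rose and none fell, where 2.70% of all genes were called higher. The median log2 change was 0.40, and 0.13 without TAE replicate 3, with 4 called higher, against 4.82% of all genes. Lcp2, which encodes the adaptor SLP-76, averaged 40.2 ± 3.87 FPKM in TAE and 19.1 ± 1.73 FPKM in HCC. The kinase gene Fyn averaged 23.5 ± 2.21 FPKM in TAE and 10.7 ± 1.18 FPKM in HCC, and Vav1, a guanine nucleotide exchange factor, 27.8 ± 2.94 FPKM in TAE and 13.9 ± 0.223 FPKM in HCC. These genes are also used by other blood cells, whose part in the result was not tested. Lck, the kinase that both coreceptors bind, had 13.9, 17.4 and 23.6 FPKM in TAE against 10.4, 15.7 and 14.9 FPKM in HCC, and Zap70, the kinase that docks on the CD3 chains, had 4.06, 5.38 and 7.82 FPKM in TAE against 4.48, 6.13 and 6.50 FPKM in HCC. Neither passed (edgeR adjusted p = 0.419 and 0.993), and the TAE and HCC ranges of both overlapped. Among genes of T cell recruitment, whose median log2 change was 0.73, Itgal, an integrin chain of leukocytes, rose and none fell. Itgal averaged 51.7 ± 6.32 FPKM in TAE and 32.0 ± 2.28 FPKM in HCC (log2 change 0.63, edgeR adjusted p = 0.0437).

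Of 17 cytotoxic granule genes tested, Srgn alone rose and none fell, a single call where 2.70% of all genes were called higher. The median log2 change was 0.43, and 0.07 without TAE replicate 3. Srgn, the granule proteoglycan serglycin that many blood cells make, averaged 70.8 ± 10.3 FPKM in TAE and 34.4 ± 5.31 FPKM in HCC. Gzmk, another granzyme, had 2.46, 4.97 and 12.3 FPKM in TAE against 4.55, 3.06 and 4.31 FPKM in HCC, and Nkg7, a granule membrane protein of killer cells, had 12.4, 24.6 and 36.4 FPKM in TAE against 12.5, 15.8 and 14.2 FPKM in HCC. Neither passed (edgeR adjusted p = 0.464 and 0.296), and both were highest in TAE replicate 3, as were Gzma, Gzmb and Prf1. Of 19 genes of the interferon gamma receptor and response, Ifngr1, Irf8 and Ciita rose and none fell (median 0.35), where 2.70% of all genes were called higher. Changes were positive for 16 genes and negative for 3, among them Ido1 (-0.67) and Cxcl11 (-0.38), and none of the 3 passed. Which cells gave these values was not tested. Ifngr1, the ligand-binding receptor chain, averaged 108 ± 22.1 FPKM in TAE and 47.0 ± 5.09 FPKM in HCC. Irf8, a transcription factor of the response, averaged 75.4 ± 3.15 FPKM in TAE and 39.6 ± 3.21 FPKM in HCC, and Ciita, the activator of MHC class II genes, 24.4 ± 3.36 FPKM in TAE and 12.4 ± 1.33 FPKM in HCC. The response chemokines Cxcl9 and Cxcl10 averaged 58.8 ± 13.6 and 151 ± 76.4 FPKM in TAE and 55.7 ± 12.6 and 203 ± 35.4 FPKM in HCC and did not pass (edgeR adjusted p = 0.981 and 0.319). Of 12 inducers of interferon gamma and effector function tested, Il21r alone rose (17.8 ± 1.91 FPKM in TAE, 8.70 ± 1.03 FPKM in HCC) and none fell (median 0.42). This too was a single call, where 2.70% of all genes were called higher. None of 11 hepatocyte markers passed (3 at an unadjusted p under 0.05, namely Ttr, Pck1 and Tat, against 22.7% of all genes, 0 with DESeq2, median -0.62). Their mean level relative to HCC was -0.86, -1.64 and 0.04 in TAE replicates 1, 2 and 3. Without TAE replicate 3, 7 of the 11 were called lower in TAE (median -1.20), against 3.51% of all genes. Among the 7 was Alb, the albumin gene, which had 6948, 5318 and 15304 FPKM in TAE against 12096, 14853 and 15868 FPKM in HCC.

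The genes lie as neighbours in part. In the coordinates of the deposited table, Cd8b (chromosome 4, 99185885 to 99202023) ends 37091 bases before Cd8a (99239115 to 99243351), on the same strand. Cd3g (chromosome 8, 49274960 to 49280901), Cd3d (49282460 to 49287110) and Cd3e (49297608 to 49308806) follow each other, and Cd3g and Cd3d lie 1558 bases apart on opposite strands. The Cd3d to Cd3e ratio was 0.738, 0.788 and 0.961 in TAE and 0.669, 0.627 and 0.879 in HCC, and these ranges overlap. The build of these coordinates is not settled.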

How the data were processed

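RNA of rat liver was sequenced in 6 libraries, grouped by title. Per the labels' protocols, RNA was poly(A)-selected and libraries were strand-specific (dUTP). The authors deposited 1 table, which per the file headers holds unnormalized counts and FPKM of each gene in each library. The deposited FPKM equal the count scaled to exonic size and library total (100% of values within 0.006 when rebuilt). For aligner, counter and use of strand: not given in the sources used here. The submitters' processing notes name mRatBN7.2, but gene ends on chromosome 1 reach 282724300, beyond that chromosome in mRatBN7.2.

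Counts were tested with edgeR 4.0.16 in R 4.3.3 (two-sided quasi-likelihood test, TMM, filterByExpr, no block). P-values of the 14499 genes kept were adjusted after Benjamini and Hochberg, and 0.05 was the threshold. SEs are the absolute log2 change divided by the square root of F, and 95% intervals are 1.96 SE and approximate. Ratios used exact permutation (scipy 1.17.1). Alternatives used DESeq2 1.42.0, limma 3.58.1 on log2(FPKM + 1), other scalings and filters, a replicate block and each library left out. The fit was tested on simulated data. The labels do not say that replicates are separate animals, and the p-values then reflect only how much these samples vary, which may be technical. Members and lists were chosen with earlier results of these data known. Of 189 list entries, 183 were in the table. The result of 1 list gene is not reported here. Genes named were the members, list genes that passed or, where none did, the 3 with the smallest p, and the 3 nearest profiles of Cd8a, Cd4, Cd3e and Prf1. Ncr1, Adgre1's values, Lck, Zap70, Gzmk, Nkg7, Cxcl9, Cxcl10 and Csf1r were picked as examples after their values were seen. So were Marco, Clec4f, Cd163, Alb, Flt3, Clec9a, Zbtb46, Siglech, Ido1 and Cxcl11.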

Additional observations from a re-analysis of the deposited data

How the results depend on the processing

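The log2 changes of Cd8a, Cd8b and Cd4 and the ratios of these genes to Cd3e were positive in every setting run, and so was Cd8a to Cd8b. edgeR called 437 genes, against 1037 with total count scaling, 829 without a filter on low counts, 1667 with DESeq2, and 701 and 709 with limma on log2(FPKM + 1) and log2(FPKM + 0.1). Of the 10 genes, 2 (Cd8a and Cd4) were called in each of these 5 settings and 0 in edgeR with TMM. Of the genes in the 12 lists, 24 were called by edgeR and 45 by DESeq2. Leaving out 1 library gave 0 to 3570 genes, 0 to 2 of the 10 genes and 0 to 60 list genes. The low counts came without TAE replicate 1 (1 gene) or HCC replicate 1, 2 or 3 (0, 1 and 0 genes), with 2197, 2210, 2243 and 1997 genes at unadjusted p below 0.05, and the high count came without TAE replicate 2. The cause was not tested.

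With the replicate block, edgeR called 0 genes and 0 list genes (2984 at an unadjusted p under 0.05), and the Cd8a, Cd4 and Prf1 changes were 1.23, 1.23 and -0.089. Same-numbered libraries had correlations of their deviations of 0.10, -0.21 and 0.03, not every library correlated best with its own number, and the labels do not pair them, so they share only a number. For the ratios the block left the mean difference as it was, and the smallest p it allows is 0.25.

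Signs of small changes turned with single libraries. Leaving out each library in turn, the log2 change ran from -0.22 to 0.66 for Cd3d, -0.31 to 0.35 for Cd3e, -0.19 to 0.61 for Cd3g, -1.12 to 0.30 for Gzma, -0.63 to 0.17 for Gzmb, -0.48 to 0.41 for Prf1 and -0.14 to 0.32 for Ifng. The log2 ratio to Cd3e ran from -0.22 to 0.016 for Prf1 and -0.25 to 0.50 for Ifng. The log2 change of Prf1 was -0.028 and -0.034 with limma at pseudocounts of 1 and 0.1, and the Ifng ratio was -0.12 against the mean of the 3 CD3 chains. Low counts limit Gzmb (15 to 43 counts) and Ifng (33 to 68 counts).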
